A study of Mus musculus with 9 samples.

Results

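The NuRD complex (nucleosome remodelling and deacetylase) was followed across RNA-seq libraries of the T15 cell line, through 10 genes that encode its subunits: Chd3, Chd4, Mta1, Mta2, Mta3, Gatad2a, Gatad2b, Mbd2, Mbd3 and Rbbp4. The members were chosen by name, by pairing the Ensembl identifiers of the count table with gene symbols, and they are 10 of 35288 genes listed. All 10 passed the filter on low counts, which left 13697 genes for testing. T15 is a murine peripheral T-cell lymphoma line without Smarcb1, a core subunit of the SWI/SNF chromatin remodeller, and it stems from a mouse model in which a Cd4-driven Cre deletes floxed Smarcb1 in T cells. All 9 libraries come from this line and share the loss of the endogenous gene, with 3 libraries in each of 3 groups. The control group carries the label control. The SAHA group received the histone deacetylase inhibitor SAHA (vorinostat) at 1 µM, added 2 times within 72 h. The Smarcb1-RE group carried a lentiviral Smarcb1 cDNA, was selected with G418 and was induced with doxycycline (0.5 µg/µl) for 72 h. The study's text describes the sequenced control cells as untreated, whereas its scheme of the re-expression experiment shows control cells with an empty vector, and the labels do not state whether the control libraries had vehicle, a control plasmid, selection or doxycycline. Where Smarcb1-RE is set against control, transduction, selection and doxycycline therefore cannot be told apart from Smarcb1 itself. The paper's methods also describe stable clones obtained after the selection, and differences between clones cannot be told apart from Smarcb1 either. The study calls the libraries biological replicates, but the labels do not say that those of a group came from separate cultures or clones, so p-values measure the spread between these libraries.

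Library totals lay between 20900477 and 24941494 counts, and 3 counts, taken as the detection floor, corresponded to 0.1203 to 0.1435 CPM of the library totals (counting error only). All other CPM values are TMM-normalized, that is, scaled to library totals adjusted by edgeR's TMM factors. Smarcb1 itself had 2, 5 and 8 counts in control, 7, 13 and 3 with SAHA and 151, 147 and 142 after re-expression, as labelled (log2 fold change in Smarcb1-RE 4.89, SE 0.36, adjusted p = 6.19e-08). Control replicate 1 stood apart from the other control libraries, with a chi-square per gene of 12.5 and 14.1 against them, compared with 2.07 to 4.55 in all other pairs, and calls of NuRD subunits that change without it are given both ways. Of 10 T-cell markers, 8 were above the detection floor in every library, whereas Cd2 had at most 3 counts and Thy1 at most 6. Summed CPM ranges in control, SAHA and Smarcb1-RE were 3290 to 3520, 3530 to 3610 and 4200 to 4260 for T-cell markers, and 0.936 to 1.14, 1.24 to 1.86 and 7.25 to 7.97 for the 5 listed B-cell markers. The 5 myeloid markers summed to 0.55 to 0.68, 0 to 0.0884 and 0.133 to 0.341 CPM, and the 5 stromal markers to 6.34 to 8.88, 6.76 to 6.98 and 66.4 to 68.6 CPM, the last with 1487 to 1594 counts of Pdgfra in Smarcb1-RE libraries and at most 4 counts of Col1a2. The part of these shifts in the results below was not tested.

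NuRD couples an ATP-dependent nucleosome remodeller with histone deacetylases and is found at enhancers and promoters, where it tunes transcription and is known for roles in T-cell development. The remodeller is a CHD protein (Chd3, Chd4 or Chd5), the deacetylases are Hdac1 and Hdac2, and an Mta protein forms the scaffold that binds the deacetylases and the histone chaperones Rbbp4 and Rbbp7. An Mbd protein, either Mbd2, which binds methylated DNA, or Mbd3, which in mammals binds it poorly, joins the deacetylase module to the CHD protein through Gatad2a or Gatad2b. Mbd2 and Mbd3 exclude each other from a complex, and paralogues at the other positions can also replace each other. SAHA inhibits the enzymes that NuRD carries, and SWI/SNF is often found to act against NuRD on chromatin.

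RefSeq promoter windows (GRCm38.p6, 250 bases before to 50 bases after the start, 300 bases in all) were found for 7 of the 10 members, and no window was matched for Chd3, Mta3 and Mbd2. The GC content of the 7 windows ranged from 57% to 81% (median 61.7%), against a median of 52.7% over 32851 windows. The ratio of observed to expected CpG was 0.715 to 1.12, against a median of 0.384 over all windows. A GC box (GGGCGG on either strand) was present in 7 of 7, against 35.7% of all windows. Its share among windows as rich in CpG, or among windows of expressed genes, was not computed. CCAAT on either strand was found in 5 of 7, against 37.4% of all. The letters CCGGAAG occurred in 1 (Mta2, 8.86% of all), CACGTG in 1 (Rbbp4, 7.15% of all) and TATAAA in 1 (Mbd3, 13.6% of all), and none of these 5 strings is contained in another. The windows shown belong to Chd4 and Gatad2a, whose transcripts moved in opposite directions in SAHA and Smarcb1-RE, and to Mta2 and Mbd3, which fell in both. They lie at chr6:125095731-125096030 (plus strand, Chd4), chr8:69996335-69996634 (minus strand, Gatad2a), chr19:8941670-8941969 (plus strand, Mta2) and chr10:80399482-80399781 (minus strand, Mbd3), and capitals mark GGGCGG or its reverse complement CCGCCC. The RefSeq start lies 45 bases (Mta2) and 19 bases (Mbd3) from the GENCODE gene start, and the others coincide.
Chd4: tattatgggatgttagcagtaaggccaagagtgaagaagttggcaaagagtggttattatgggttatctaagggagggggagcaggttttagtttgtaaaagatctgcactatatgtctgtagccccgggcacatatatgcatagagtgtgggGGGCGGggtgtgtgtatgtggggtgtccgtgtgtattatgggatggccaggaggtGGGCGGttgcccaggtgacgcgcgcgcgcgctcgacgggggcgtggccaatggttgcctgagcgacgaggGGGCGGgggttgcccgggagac
Gatad2a: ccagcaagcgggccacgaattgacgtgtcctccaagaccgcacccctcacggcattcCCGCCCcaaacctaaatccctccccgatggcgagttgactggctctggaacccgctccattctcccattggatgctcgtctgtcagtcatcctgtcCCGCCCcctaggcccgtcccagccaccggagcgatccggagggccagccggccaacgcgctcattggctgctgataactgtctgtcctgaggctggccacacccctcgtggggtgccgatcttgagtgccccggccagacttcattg
Mta2: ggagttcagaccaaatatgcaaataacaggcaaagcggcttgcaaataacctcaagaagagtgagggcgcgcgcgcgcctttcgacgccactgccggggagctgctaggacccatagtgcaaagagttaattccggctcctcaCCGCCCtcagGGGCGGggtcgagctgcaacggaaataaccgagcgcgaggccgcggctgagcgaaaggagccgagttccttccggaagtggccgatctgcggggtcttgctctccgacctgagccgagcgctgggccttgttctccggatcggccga
Mbd3: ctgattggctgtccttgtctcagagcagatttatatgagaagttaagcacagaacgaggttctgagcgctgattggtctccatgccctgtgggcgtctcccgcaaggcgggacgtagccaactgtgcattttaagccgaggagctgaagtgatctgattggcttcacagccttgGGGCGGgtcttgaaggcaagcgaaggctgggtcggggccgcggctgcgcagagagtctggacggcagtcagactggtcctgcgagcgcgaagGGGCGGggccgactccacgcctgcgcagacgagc
The GC box was shared by windows of genes that rose and of genes that fell, and a match is a description of the letters in this window.

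In SAHA-treated cells, 2 of the 10 NuRD genes rose and 6 fell relative to control, and 2 did not pass the test (adjusted p under 0.05). Of all genes tested, 66.9% passed in this comparison, 32.6% higher and 34.3% lower. After Smarcb1 re-expression, 2 members rose, 5 fell and 3 did not pass, against 77.8% of all genes called, 39.2% higher and 38.6% lower. Between Smarcb1-RE and SAHA, 3 members were higher and 5 lower in Smarcb1-RE, against 74.6% of all genes called (37.7% higher and 36.8% lower). The share of members called (8, 7 and 8 of 10) was thus near the share of all genes in each comparison. No member doubled or halved relative to control in the 2 treated groups. Of all genes, 9.85% doubled and 2.35% halved after SAHA, and 16.9% and 6.78% did so after Smarcb1 re-expression. Libraries of the compared groups did not overlap for 3 members higher and 6 lower with SAHA (33.8% and 34.9% of all genes), for 2 higher and 6 lower after re-expression (40.4% and 39.1%), and for 3 higher and 5 lower when Smarcb1-RE was set against SAHA (40.7% and 39.2%, together 80%). Across the members, log2 fold changes had a median of −0.18 for SAHA and −0.20 for Smarcb1-RE, against 0.00 and 0.01 over all genes, and their median absolute log2 fold change was 0.23 and 0.31, against 0.37 and 0.53 over all genes. Both treated groups were compared with the same 3 control libraries, so these comparisons are not independent. Scaling by library totals alone moved the median of all genes in Smarcb1-RE against control from 0.01 to 0.17 and the share of calls that were higher from 50.4% to 61%, and against SAHA from 0.02 to 0.18 and from 50.6% to 62.1%. Members whose direction or call depends on this scaling are named where they are described.

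**Figure D1:**
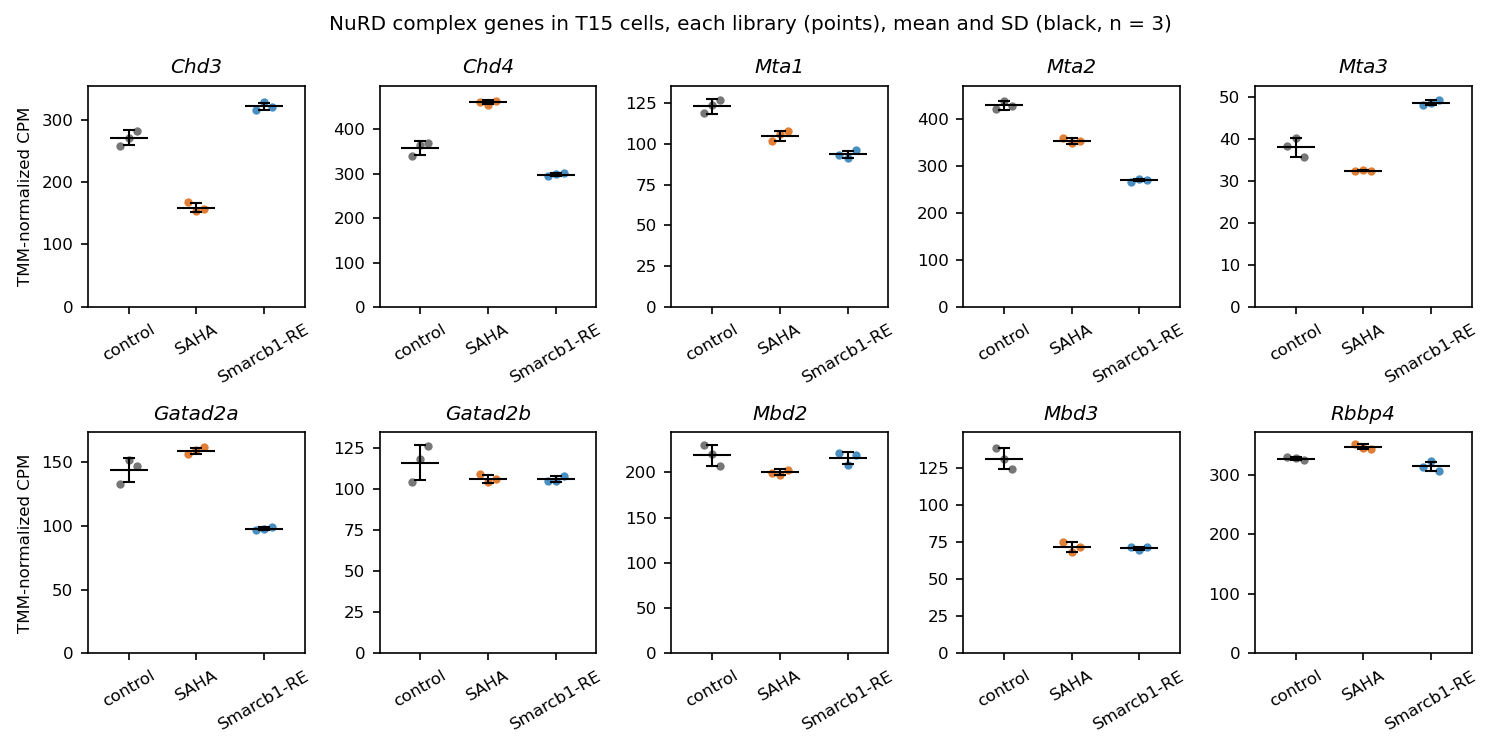
TMM-normalized CPM (vertical axis, from 0) of the 10 NuRD genes in the 3 libraries of each group (points), with the group mean and SD in black. Chd3 and Chd4 move in opposite directions in SAHA and again in Smarcb1-RE, and Mbd3 sits at 68.1 to 74.8 CPM in the SAHA and 69.6 to 71.4 CPM in the Smarcb1-RE libraries, below all 3 control libraries at 124 to 138 CPM.

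The remodeller subunits moved against each other. Chd3 (chromosome 11, 69343273 to 69369406, minus strand), a CHD-type ATPase, was measured at 258, 271 and 282 CPM in control, 168, 153 and 157 CPM in SAHA and 316, 328 and 320 CPM in Smarcb1-RE. The 3 groups did not overlap, with SAHA lowest and Smarcb1-RE highest. The means were 271 ± 11.8, 159 ± 7.72 and 321 ± 5.99 CPM (SD, n = 3 each), and Chd3 fell by 41.2% in SAHA (log2 fold change −0.77, SE 0.05, adjusted p = 2.7e-08) and rose 1.19-fold in Smarcb1-RE (0.25, SE 0.05, adjusted p = 0.000268). Chd4 (chromosome 6, 125095981 to 125130591, plus strand), the CHD protein best known as the NuRD ATPase, was at 340, 365 and 370 CPM in control, 461, 456 and 465 CPM in SAHA and 294, 299 and 301 CPM in Smarcb1-RE. Its groups did not overlap either, but their order was the reverse of that of Chd3. Chd4 rose 1.29-fold in SAHA (log2 fold change 0.36, SE 0.04, adjusted p = 4.79e-06) and fell by 16.8% in Smarcb1-RE (−0.27, SE 0.04, adjusted p = 5.23e-05). Tested directly, Smarcb1-RE exceeded SAHA 2.02-fold for Chd3 (log2 fold change 1.01, SE 0.05, adjusted p = 8.66e-10), the one doubling among the members in any comparison (11.5% of all genes doubled and 8.21% halved), whereas Chd4 was 1.55-fold lower (−0.63, SE 0.04, adjusted p = 1.81e-08). In these bulk libraries, fewer cells that express a gene and less of its RNA per cell cannot be told apart.

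Chd5, another CHD protein of the complex and best known from neurons and as a tumour suppressor, was at a low level in T15, with 55, 47 and 76 counts in control, 77, 75 and 84 with SAHA and 239, 275 and 243 after re-expression. Every Smarcb1-RE library lay above all others. The mean was 2.48 ± 0.583 CPM in control and 10.9 ± 1.07 CPM in Smarcb1-RE, a 4.39-fold rise (log2 fold change 2.14, SE 0.15, adjusted p = 3.46e-08). In SAHA the rise was 1.38-fold (0.46, SE 0.16, adjusted p = 0.0254), and it did not pass the test in 4 alternatives, among them the fits without control replicate 1 (0.416, adjusted p = 0.0625), control replicate 2 (0.320, adjusted p = 0.111) or SAHA replicate 3 (0.417, adjusted p = 0.0758). Chd5 lies on chromosome 4. There, 671 coding genes above a minimum level, NuRD subunits left out, had a median log2 fold change of 0.29 in Smarcb1-RE against control. Over 9650 such genes of the other autosomes it was −0.10. Rbbp4 and Hdac1 also lie on chromosome 4. On chromosome 11, which carries Chd3, the median was −0.20, against −0.06 over 9417 genes of the other autosomes. Chromosomes of the other members had medians of −0.17 to −0.02. Between Smarcb1-RE and SAHA, the median was 0.38 on chromosome 4, against −0.04 over the other autosomes. On chromosome 11 it was −0.23 in that comparison, against 0.01, and chromosomes of the other members had medians of −0.11 to 0.03. The part of these shifts in the values of the subunits was not tested.

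Of the methyl-CpG-binding-domain pair, Mbd3 had the largest fall of any member in both treated groups, whereas Mbd2 stayed within 10% of control. Mbd3 (chromosome 10, 80392539 to 80399550, minus strand) was at 138, 131 and 124 CPM in control, 74.8, 68.1 and 71.8 CPM in SAHA and 71.4, 69.6 and 71.3 CPM in Smarcb1-RE. All 6 treated libraries lay below the 3 control libraries, and the SAHA and Smarcb1-RE libraries overlapped. From a control mean of 131 ± 7.1 CPM, Mbd3 fell by 45.3% in SAHA (log2 fold change −0.87, SE 0.05, adjusted p = 1.61e-08) and fell by 45.9% in Smarcb1-RE (−0.89, SE 0.05, adjusted p = 4.22e-09). The difference between Smarcb1-RE and SAHA was −0.02 on the log2 scale (95% interval −0.14 to 0.11, adjusted p = 0.779), and under library totals it was 0.142 (adjusted p = 0.0154). Mbd2 (chromosome 18, 70568189 to 70626131, plus strand) was at 230, 220 and 207 CPM in control, 199, 197 and 203 CPM in SAHA and 221, 208 and 219 CPM in Smarcb1-RE. SAHA libraries were the lowest, and control and Smarcb1-RE overlapped. Mbd2 fell by 8.69% in SAHA (−0.13, SE 0.04, adjusted p = 0.0208), a call that was lost without SAHA replicate 2 (adjusted p = 0.0608) or with a minimum of 10 counts in every library (adjusted p = 0.0627). In Smarcb1-RE its log2 fold change was −0.02 (95% interval −0.13 to 0.09, adjusted p = 0.734) and turned to 0.142 (adjusted p = 0.00696) under library totals and to 0.013 (adjusted p = 0.766) without control replicate 1. Against SAHA, Smarcb1-RE was higher by 0.11 (SE 0.05, adjusted p = 0.0361), and this call was lost in 8 of 16 alternatives.

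Gatad2a and Gatad2b encode the zinc-finger proteins that bridge the Mbd protein and the remodeller. Gatad2a (chromosome 8, 69907076 to 69996384, minus strand) was at 133, 152 and 147 CPM in control, 157, 160 and 162 CPM in SAHA and 96.7, 98 and 99.1 CPM in Smarcb1-RE. The 3 groups did not overlap, and Smarcb1-RE was lowest. Gatad2a fell by 32.1% in Smarcb1-RE (log2 fold change −0.56, SE 0.05, adjusted p = 2.6e-07) and was 1.63-fold lower there than in SAHA (−0.70, SE 0.05, adjusted p = 3.28e-08). Its 1.11-fold rise in SAHA (0.14, SE 0.05, adjusted p = 0.016) was lost without SAHA replicate 2 (adjusted p = 0.0535) or 3 (adjusted p = 0.0582). Gatad2b (chromosome 3, 90293178 to 90363407, plus strand) had 104, 118 and 126 CPM in control, 109, 104 and 106 CPM in SAHA and 105, 105 and 108 CPM in Smarcb1-RE. Both treated groups overlapped with control, where replicate 1 was the lowest library. The log2 fold change was −0.13 in SAHA (95% interval −0.27 to 0.01, adjusted p = 0.0677) and −0.13 in Smarcb1-RE (adjusted p = 0.0587). Without control replicate 1, Gatad2b passed in both (−0.201, adjusted p = 0.00049, and −0.205, adjusted p = 0.000312), which brought the members called lower to 7 in SAHA and 6 in Smarcb1-RE. In Smarcb1-RE against control the direction turned to 0.030 under library totals. Between Smarcb1-RE and SAHA, the log2 fold change of Gatad2b was −0.00 (adjusted p = 0.996). Under library totals it was 0.158 there and passed the test (adjusted p = 0.0356).

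The Mta scaffold genes showed a shared fall of Mta1 and Mta2 and a divergent Mta3. Mta2 (chromosome 19, 8941875 to 8952303, plus strand) was at 421, 440 and 428 CPM in control, 361, 349 and 353 CPM in SAHA and 267, 272 and 270 CPM in Smarcb1-RE. The groups were separate, with Smarcb1-RE lowest. Mta2 fell by 17.5% in SAHA (log2 fold change −0.28, SE 0.04, adjusted p = 1.83e-05) and by 37.3% in Smarcb1-RE (−0.67, SE 0.04, adjusted p = 3.06e-09), and Smarcb1-RE was below SAHA (−0.39, SE 0.04, adjusted p = 5.09e-07). Mta1 (chromosome 12, 113098278 to 113137206, plus strand), the founding member of the family and linked to metastasis, was at 119, 124 and 127 CPM in control, 102, 106 and 108 CPM in SAHA and 93.5, 91.6 and 96.1 CPM in Smarcb1-RE. It also fell in both, with log2 fold changes of −0.23 (SE 0.04, adjusted p = 0.000335) and −0.40 (SE 0.04, adjusted p = 1.89e-06). Smarcb1-RE was 0.17 lower than SAHA for Mta1 (adjusted p = 0.0031), which shrank to −0.008 (adjusted p = 0.874) under library totals. Mta3 (chromosome 17, 83706163 to 83821516, plus strand), known from B cells as a partner of the repressor Bcl6, was at 38.3, 40.2 and 35.7 CPM in control, 32.3, 32.5 and 32.3 CPM in SAHA and 48.1, 48.4 and 49.2 CPM in Smarcb1-RE. Its groups did not overlap, with SAHA lowest and Smarcb1-RE highest, the same order as for Chd3. Mta3 fell by 0.23 on the log2 scale in SAHA (SE 0.05, adjusted p = 0.00112) and rose by 0.35 in Smarcb1-RE (SE 0.05, adjusted p = 2.05e-05), and the direct difference between the treated groups was 0.59 (SE 0.05, adjusted p = 2.2e-07).

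Rbbp4 (chromosome 4, 129307100 to 129335370, minus strand), a WD40 histone chaperone shared with Polycomb repressive complex 2 and Sin3, was not called against control. It was at 329, 328 and 325 CPM in control, 351, 345 and 344 CPM in SAHA and 313, 323 and 307 CPM in Smarcb1-RE. The 3 groups did not overlap, although the gaps were small, and groups of 68.7% of all genes did not overlap in SAHA against control and 79.5% in Smarcb1-RE against control. The log2 fold changes against control were 0.08 (95% interval −0.00 to 0.17, adjusted p = 0.0566) in SAHA and −0.06 (95% interval −0.15 to 0.03, adjusted p = 0.157) in Smarcb1-RE. The former passed the test in 4 of 16 alternatives, among them the fit without control replicate 1 (0.084, adjusted p = 0.0312). Under library totals the latter turned to 0.101 (adjusted p = 0.0216). Smarcb1-RE was lower than SAHA by 0.14 (SE 0.04, adjusted p = 0.00322), a difference of 0.018 in the other direction under library totals (adjusted p = 0.658). Its paralogue Rbbp7, on chromosome X, had 708, 715 and 685 CPM in control, 680, 649 and 658 CPM in SAHA and 354, 355 and 356 CPM in Smarcb1-RE. Rbbp7 was thus separated from control in both treated groups, by a wide gap in Smarcb1-RE, where it fell by 49.5% (−0.98, SE 0.04, adjusted p = 1.52e-10), and its log2 fold change in SAHA was −0.08 (adjusted p = 0.0573). In SAHA, Rbbp7 passed the test without control replicate 1 (−0.081, adjusted p = 0.0363), control replicate 3 (−0.103, adjusted p = 0.0375) or SAHA replicate 1 (−0.107, adjusted p = 0.0281), and with DESeq2 (−0.078, adjusted p = 0.0381). Rbbp7 overlaps Txlng on the opposite strand by 174 bases, a gene with at most 1126 counts in a library.

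The catalytic deacetylases, which SAHA inhibits, were also unlike each other. Hdac1 was at 357, 348 and 338 CPM in control, 493, 516 and 513 CPM in SAHA and 283, 278 and 275 CPM in Smarcb1-RE. It rose 1.46-fold in SAHA (log2 fold change 0.54, SE 0.04, adjusted p = 8.93e-08) and fell by 19.9% in Smarcb1-RE (−0.32, SE 0.04, adjusted p = 6.1e-06), the same order of groups as for Chd4 and Gatad2a. Hdac2 was at 111, 111 and 109 CPM in control, 101, 99.4 and 100 CPM in SAHA and 73.9, 72.7 and 76.1 CPM in Smarcb1-RE. Like Mta1 and Mta2, it was lower in both treated groups (−0.14, adjusted p = 0.00514, and −0.57, adjusted p = 1.76e-08). Cdk2ap1, a small subunit also known as an inhibitor of Cdk2, was at 47.7 ± 1.73 CPM in control, 52.9 ± 1.63 CPM in SAHA and 52 ± 1.85 CPM in Smarcb1-RE. It rose by 0.15 in SAHA (adjusted p = 0.0131) and by 0.13 in Smarcb1-RE (adjusted p = 0.0262), but the first call was lost without SAHA replicate 2 (0.124, adjusted p = 0.0604) and the second in 7 alternatives, 5 of which left out 1 library (control replicate 2 or 3, SAHA replicate 2, or Smarcb1-RE replicate 2 or 3, adjusted p 0.0537 to 0.126).

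**Figure D2:**
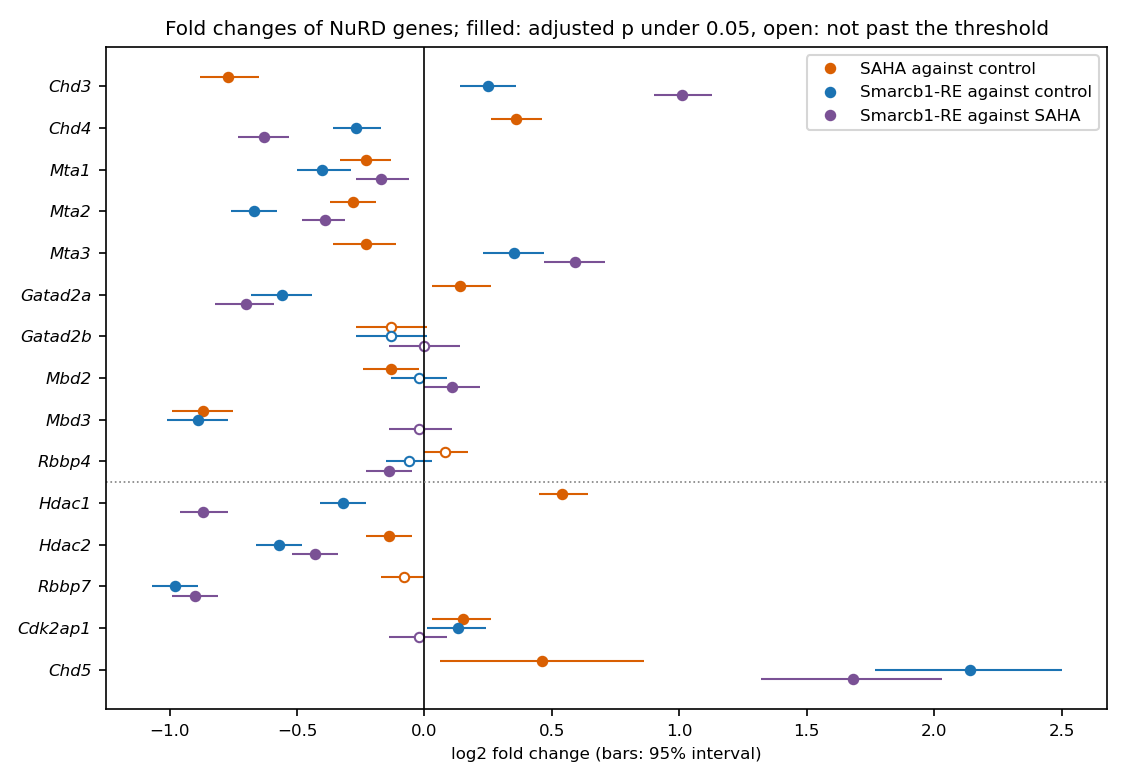
Log2 fold changes (horizontal axis) with 95% intervals of the 10 members (above the dotted line) and 5 other NuRD subunits in the 3 comparisons, filled where the adjusted p was under 0.05. Chd3, Chd4, Mta3 and Gatad2a lie on opposite sides of 0 in SAHA and Smarcb1-RE, as does Hdac1, while Mbd3 lies at −0.87 and −0.89. Under library totals, the open points of Gatad2b, Mbd2 and Rbbp4 for Smarcb1-RE against control move to 0.030, 0.142 and 0.101.

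Ratios between paralogues within a library do not depend on how libraries are scaled, and here they are ratios of counts, without regard to gene length. The log2 ratio of Chd3 to Chd4 counts was −0.40, −0.43 and −0.39 in control, −1.46, −1.58 and −1.57 with SAHA and 0.10, 0.13 and 0.09 in Smarcb1-RE. The ratio was thus 2.19-fold lower in SAHA than in control and 1.43-fold higher in Smarcb1-RE, a 3.12-fold span between the treated groups. Mbd2 to Mbd3 gave 0.73, 0.75 and 0.74 in control, 1.41, 1.53 and 1.50 with SAHA and 1.63, 1.58 and 1.62 in Smarcb1-RE. This ratio was higher in every treated library than in control, 1.67-fold with SAHA and 1.83-fold after re-expression. For Gatad2a to Gatad2b the values were 0.35, 0.36 and 0.23 in control, 0.53, 0.62 and 0.61 with SAHA and −0.12, −0.10 and −0.13 in Smarcb1-RE. Smarcb1-RE libraries were the only ones with a log2 ratio below 0. Mta3 to Mta2 was −3.46, −3.45 and −3.59 in control, −3.48, −3.42 and −3.45 with SAHA and −2.47, −2.49 and −2.46 in Smarcb1-RE, a 2.04-fold increase in Smarcb1-RE with overlap between SAHA and control. Mta1 to Mta2 had means of −1.80, −1.75 and −1.52, and control and SAHA overlapped there too. Rbbp4 to Rbbp7 had means of −1.10 (control), −0.93 (SAHA) and −0.18 (Smarcb1-RE) (a 1.9-fold higher ratio in Smarcb1-RE than in control). Of 18 comparisons (6 ratios, 3 pairs of groups), 16 showed no overlap and had p = 0.1 in a two-sided exact permutation test, the smallest value that 3 against 3 libraries allow (0.113 after Benjamini-Hochberg adjustment over 18), so that this test cannot pass 0.05 here. The others were Mta1 to Mta2 (exact p = 0.3) and Mta3 to Mta2 (exact p = 0.5) in SAHA against control, and these 2 ratios share Mta2. Among all single genes, libraries did not overlap for 68.7% (SAHA against control), 79.5% (Smarcb1-RE against control) and 80% (Smarcb1-RE against SAHA). The share without overlap among ratios of other gene pairs was not computed, so whether the count is particular to NuRD paralogues cannot be told.

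**Figure D3:**
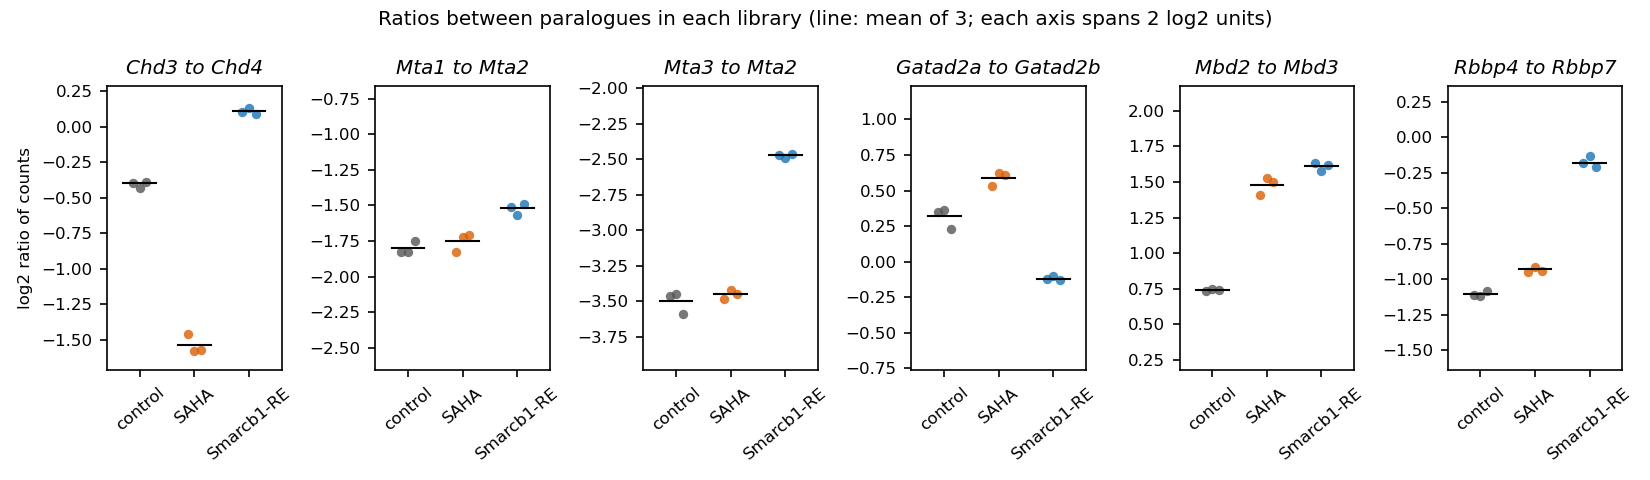
Log2 ratio of counts (vertical axis) between paralogues in each library (points) with the mean of 3 libraries (line); each axis spans the same range. The ratio of Chd3 to Chd4 goes from −0.40 (control) to −1.54 (SAHA) and 0.11 (Smarcb1-RE), and that of Mbd2 to Mbd3 from 0.74 to 1.48 and 1.61.

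Levels of different genes were compared per kb of exon (CPM divided by the length of all annotated exons). In control, Mta2 ranked first at 105 CPM per kb, followed by Mbd2 at 68.1 and Mbd3 at 65.9, which overlapped between libraries, then Chd4 (44.7), Mta1 (39.7), Rbbp4 (37.4), Chd3 (32), Gatad2a (25.8), Gatad2b (10.1) and Mta3 (7.15). Apart from Mbd2 and Mbd3, neighbours in this order did not overlap. In SAHA, Mta2 (86.6 CPM per kb) and Mbd2 (62.1) again led, Chd4 (57.4) was the third, and Mbd3 (36) overlapped with Mta1 (33.9). In Smarcb1-RE, Mbd2 (67.2 CPM per kb) and Mta2 (65.9) overlapped at the top. Further down, Chd3 (38) overlapped with Chd4 (37.2), Chd4 with Rbbp4 (36) and Rbbp4 with Mbd3 (35.6). Gatad2b (9.28) and Mta3 (9.13) were last and overlapped. The order depended on the length used. With the longest coding transcript as the length, Rbbp4 took the fourth place in control (74.3 CPM per kb, overlapping with Mbd3 at 78.8) and the third in SAHA (78.7) and Smarcb1-RE (71.4), and Mbd2 no longer overlapped with Mbd3 in control. In Smarcb1-RE, Mbd2 (111) then lay above Mta2 (86) and Mta3 (18.2) above Gatad2b (14.3), both without overlap, whereas in control Gatad2b (15.6) and Mta3 (14.2) overlapped.

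Summed over paralogues per kb, the remodeller position was almost level across groups under TMM scaling. It was at 77 ± 3.4 CPM per kb in control, 76.6 ± 1.24 in SAHA and 76.3 ± 1.12 in Smarcb1-RE, differences smaller than the spread between control libraries. Within it, the share of Chd3 was 41.6% ± 0.29 in control, 24.6% ± 0.845 in SAHA and 49.8% ± 0.341 in Smarcb1-RE, with Chd4 at 58%, 75% and 48.7% and Chd5 at 0.336%, 0.466% and 1.5%. The Mta sum was 152, 127 and 105 CPM per kb, and the share of Mta3 in it was 4.71%, 4.81% and 8.68%. The Mbd sum was 134, 98.2 and 103 CPM per kb, and Mbd2 went from 50.8% ± 0.154 of it to 63.3% ± 1 (SAHA) and 65.4% ± 0.404 (Smarcb1-RE). The Gatad2 sum was 35.9, 37.8 and 26.8 CPM per kb, with 71.8%, 75.5% and 65.4% from Gatad2a. The Rbbp sum was 279, 267 and 158 CPM per kb, and Rbbp4 made up 13.4%, 14.8% and 22.8% of it. The Hdac sum was 126, 170 and 97.5 CPM per kb. With the longest coding transcript, the share of Mta3 was 7.3%, 7.45% and 13.2%, that of Rbbp4 19.2%, 21% and 31.1%, that of Mbd2 58.7%, 70.4% and 72.2%, and that of Chd3 40.9%, 24% and 49.2%, and the Mta, Mbd, Gatad2, Rbbp and Hdac sums in control were 195, 191, 44.4, 387 and 205 CPM per kb. The sums were not computed under library totals, which moved the median of all genes in Smarcb1-RE against control from 0.01 to 0.17. Differences of a sum between Smarcb1-RE and the other groups therefore depend on the scaling, whereas shares within a library do not. These sums use transcript levels and say nothing of protein in the complex.

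**Figure D4:**
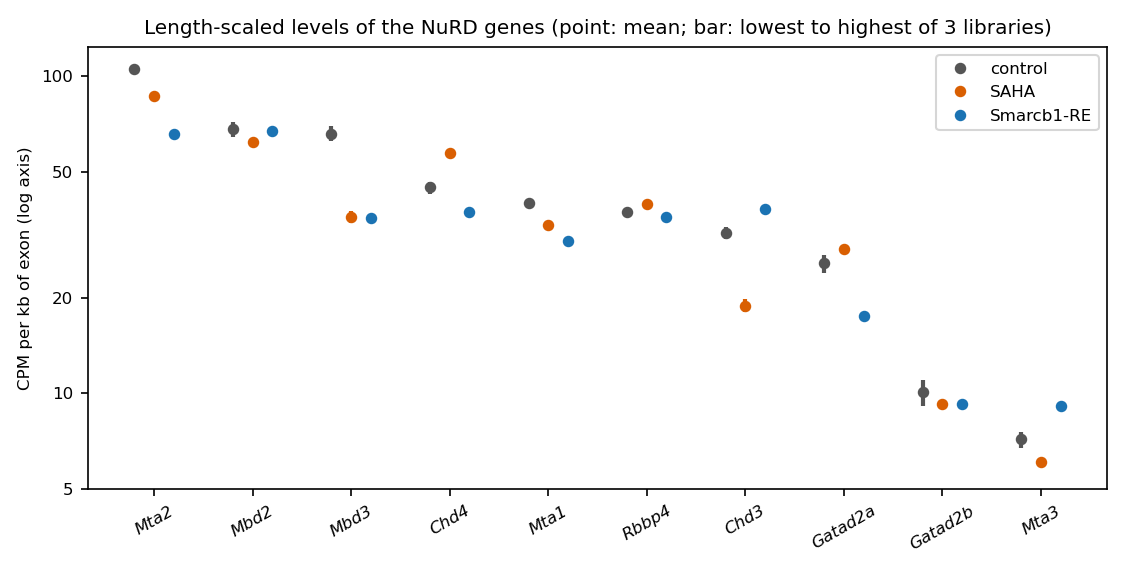
Level in CPM per kb of exon (vertical axis, log scale) of the 10 members, ordered by their level in control, as the mean (point) and the lowest to highest of 3 libraries (bar). Mta2 drops from 105 to 86.6 and 65.9, and Mta3 and Gatad2b stay at the lower end in all 3 groups, where Mta3 lies above Gatad2b in Smarcb1-RE if the longest coding transcript is the length.

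Genes that work with NuRD or in related corepressor complexes were counted from lists chosen by name. Of 5 other core subunits (Hdac1, Hdac2, Rbbp7, Cdk2ap1, Chd5), 3 rose and 1 fell in SAHA, and 2 rose and 3 fell in Smarcb1-RE (medians 0.15 and −0.32). Of 18 partner factors that recruit or bind NuRD, 13 were tested, and 3 rose and 6 fell in SAHA, and 7 rose and 4 fell in Smarcb1-RE (medians −0.04 and 0.18). Bcl6, a repressor of lymphocyte genes, was called higher in both (0.34, adjusted p = 0.0352, and 1.17, adjusted p = 2.03e-06), and its SAHA and control libraries overlapped. Sall2, at only 10, 13 and 8 counts in control and 5, 4 and 5 in Smarcb1-RE, fell by 1.08 on the log2 scale in Smarcb1-RE (SE 0.37, adjusted p = 0.0191). Of 3 ChAHP genes, whose proteins join Chd4 in a separate complex, 0 rose and 2 fell in each treated group. Of the 6 other CHD remodellers, 2 rose and 0 fell in SAHA (median 0.07), and 4 rose and 2 fell in Smarcb1-RE (median 0.79). Chd2, a remodeller of active genes, went from 116, 126 and 131 CPM in control to 216, 207 and 208 CPM with SAHA and 351, 347 and 347 CPM in Smarcb1-RE, without overlap, a 1.69-fold and 2.8-fold rise (log2 fold change in Smarcb1-RE 1.48, SE 0.05, adjusted p = 3.49e-11). Chd7, known for CHARGE syndrome, went from 28.4 ± 1.85 CPM in control to 42.8 ± 2.04 CPM with SAHA and 86.7 ± 1.37 CPM in Smarcb1-RE, 3.05-fold above control in the latter (1.61, SE 0.05, adjusted p = 5.8e-11). Of 5 other MBD-family genes, 1 rose and 2 fell in SAHA and 4 rose and 0 fell in Smarcb1-RE (medians 0.04 and 0.59).

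The Sin3 corepressor, which shares Hdac1, Hdac2, Rbbp4 and Rbbp7 with NuRD, was counted over 11 other genes, of which 4 rose and 4 fell in SAHA and 2 rose and 8 fell in Smarcb1-RE (medians 0.07 and −0.30). Sap30, which links Sin3 to the deacetylases, was at 45 ± 2.82 CPM in control, 68.6 ± 1.19 CPM in SAHA and 20.7 ± 1.12 CPM in Smarcb1-RE. It rose in SAHA (log2 fold change 0.61, adjusted p = 5.37e-07) and fell in Smarcb1-RE (−1.12, adjusted p = 2.37e-09), the same order of groups as Chd4, Gatad2a and Hdac1. Sap18 fell by 1.09 (adjusted p = 7.89e-10) and Brms1, a metastasis suppressor, by 1.04 (adjusted p = 9.2e-09) in Smarcb1-RE on the log2 scale, and both fell less in SAHA (−0.30, adjusted p = 0.000106, and −0.15, adjusted p = 0.0402). Of 5 tested genes of the CoREST and MiDAC complexes, 3 rose and 1 fell in each treated group, among them Rcor3, a CoREST scaffold, which rose by 1.10 in Smarcb1-RE (SE 0.06, adjusted p = 3.2e-09) and 0.26 in SAHA (adjusted p = 0.0027). Of 6 NCoR and SMRT genes, 0 rose and 5 fell in SAHA, and 2 rose and 2 fell in Smarcb1-RE (medians −0.25 and −0.05). Between Smarcb1-RE and SAHA, 0 Sin3 genes were higher and 9 lower (median −0.51), 9 partner factors were higher and 3 lower (median 0.37), 4 NCoR and SMRT genes were higher and 1 lower (median 0.29), 4 other CHD genes were higher and 2 lower (median 0.67), and 4 other MBD-family genes were higher and 0 lower (median 0.45). Of the other core subunits, 1 was higher and 3 lower there (median −0.43), with Hdac1 1.82-fold and Rbbp7 1.87-fold lower. The ChAHP genes counted 1 higher and 2 lower, and the CoREST and MiDAC genes 2 higher and 1 lower. These counts stand beside the shares of all genes called, 66.9% in SAHA and 77.8% in Smarcb1-RE against control and 74.6% between the treated groups (37.7% higher and 36.8% lower), and no difference between lists was tested.

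**Figure D5:**
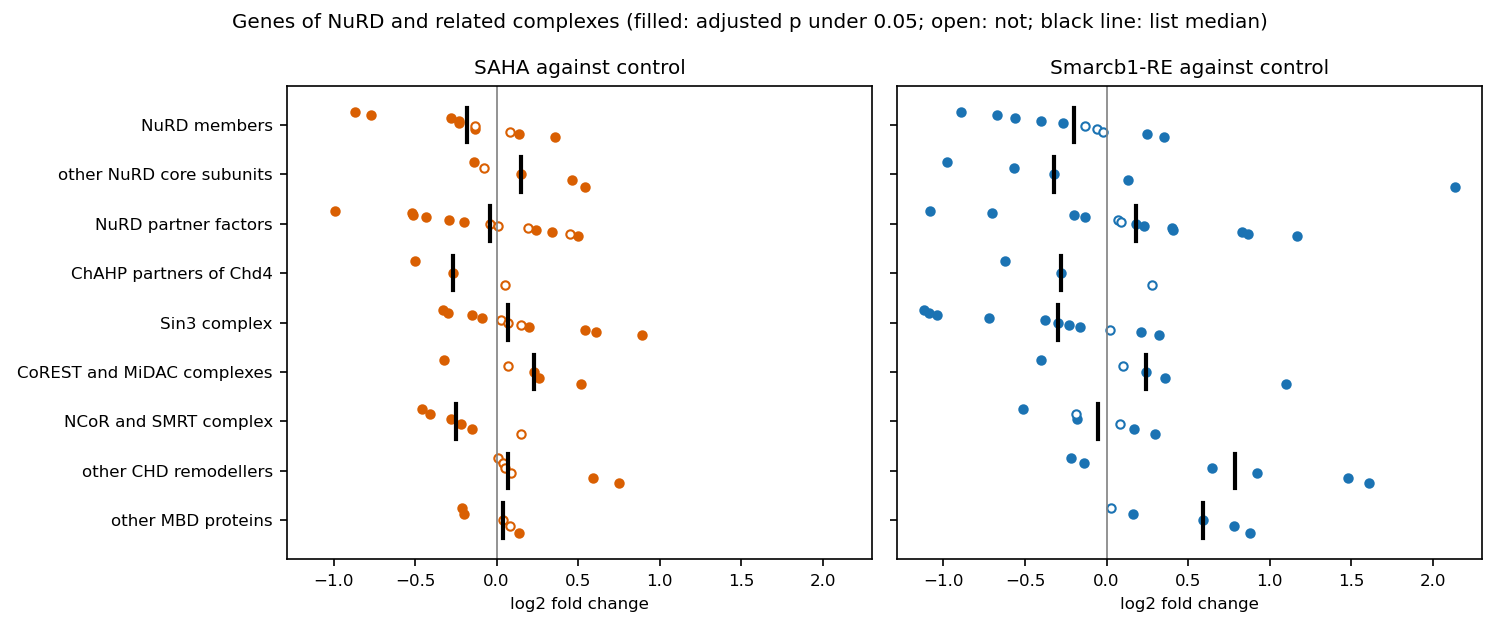
Log2 fold changes (horizontal axes, same scale) of single genes in each list (points, filled where the adjusted p was under 0.05) with the list median (black line), for SAHA (left) and Smarcb1-RE (right) against control. In Smarcb1-RE the medians run from −0.32 for the other NuRD core subunits to 0.79 for the other CHD remodellers. Library totals in place of TMM move the right panel's median of all genes from 0.01 to 0.17.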

How the data were processed

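RNA-seq of T15 cells was analysed in 9 libraries. The authors deposited estimated counts per Ensembl gene, neither normalized nor pooled, and their processing notes name Salmon 0.14.1 and GRCm38. Of the 35288 identifiers, 99.263% were found in GENCODE M21, the source of names and coordinates. Estimated counts were rounded to whole numbers, and reads shared by similar paralogues had been divided by estimation, which leaves such genes uncertain. In R 4.3.3, edgeR 4.0.16 (TMM, filterByExpr with a minimum count of 10, quasi-likelihood F test, Benjamini-Hochberg over 13697 genes, adjusted p under 0.05) was fitted to all 9 libraries, with 3 per group. The SE is the absolute log2 fold change over the square root of F, and 95% intervals use 6 degrees of freedom. Paralogue ratios used unrounded counts plus 0.5. Library totals (control 24564919 to 24941494, SAHA 23403494 to 24189992, Smarcb1-RE 20900477 to 21911177) set the depth, and the common biological coefficient of variation was 5.24%. Calculations were tested on simulated counts.

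Named genes are Smarcb1, the 10 members, 5 other core subunits and pathway-list genes past the threshold with an absolute log2 fold change of at least 1 against control. The members and lists were chosen with earlier results of these data known. Alternatives were DESeq2 1.42.0, median-ratio factors, library totals, other count filters, separate fits, a replicate block, stricter thresholds and leaving out each library. Those for the pathway lists, other subunits and gene length were added after the data were seen. One listed marker gene is not reported here.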

Additional observations from a re-analysis of the deposited data

How the results depend on the processing

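Over 480 combinations of member, comparison and alternative, 445 kept direction and side of the threshold, 13 lost the call, 8 gained it and 14 changed sign. All 162 alternatives of the paralogue ratios stayed within the spread between replicates, but this outcome was fixed in advance. The replicate block leaves a difference of means unchanged, and leaving out 1 of 3 libraries cannot move it beyond the pooled SD. The prior count and the rounding hardly move counts of this size. A minimum absolute log2 fold change of 1 left 0 members higher and 0 lower in SAHA against control, 0 and 0 in Smarcb1-RE against control, and 1 and 0 in Smarcb1-RE against SAHA, with 1671, 3237 and 2706 of all genes and 0, 9 and 5 pathway-list genes. At an adjusted p under 0.01, 1 member was higher in SAHA, and leaving out single libraries gave 1 to 3 (1 without SAHA replicate 2 or 3, 3 without control replicate 1). Library totals gave 4 members higher in Smarcb1-RE against control, and 5 higher and 3 lower against SAHA. Signs turned under library totals for Gatad2b (0.030), Mbd2 (0.142) and Rbbp4 (0.101) in Smarcb1-RE against control and for Gatad2b (0.158), Mbd3 (0.142), Rbbp4 (0.018) and Cdk2ap1 (0.135) against SAHA, by construction, since this scaling moves all genes. With at least 10 counts in every library, Mbd2 against control was 0.038, and Gatad2b and Mbd3 against SAHA were 0.022 and 0.005. Leave-one-out ranges were −0.07 to 0.013 for Mbd2 against control, and −0.03 to 0.008 for Gatad2b and −0.066 to 0.004 for Mbd3 against SAHA. Replicate numbers did not pair the libraries (mean correlation of same-number deviations −0.0034, range −0.0717 to 0.0366 over 9 pairs, against 0.0017 for different numbers). With the replicate number as a block, 9030, 10588 and 10137 genes were called in SAHA, Smarcb1-RE and between them, against 9164, 10653 and 10212 without it, and no member's call changed. Depth does not limit the members, whose counts were far above the floor, while Chd5 and Sall2 rest on few counts.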

Other observations

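The nearest tested coding genes on either side of each member, by distance between gene starts, were examined after the values had been seen, 20 neighbours in all. Some starts lie far apart, such as Mex3c at 3004855 bases from Mbd2 and Zfp36l2 at 481784 bases from Mta3. In SAHA against control, 9 of the 20 pairs had both genes called, 3 in the same direction and 6 in opposite ones. In Smarcb1-RE against control 13 pairs had both called, 8 in the same direction and 5 in opposite ones. Between Smarcb1-RE and SAHA 13 pairs had both called, 7 in the same direction and 6 in opposite ones. Of all genes, 66.9%, 77.8% and 74.6% were called in these comparisons. Mbd3, which was lower in both treated groups, lies between Uqcr11, a subunit of respiratory complex III, and Mex3d. In SAHA, Uqcr11 had a log2 fold change of 0.08 (adjusted p = 0.32, edgeR's quasi-likelihood test) and Mex3d of 0.06 (adjusted p = 0.635). In Smarcb1-RE, Uqcr11 fell by 1.12 on the log2 scale (adjusted p = 3.26e-08) and Mex3d rose by 0.25 (adjusted p = 0.0317). Zbtb8os starts 325 bases from Rbbp4 on the other strand, and it fell in SAHA (−0.23, adjusted p = 0.000346) and in Smarcb1-RE (−0.42, adjusted p = 1.29e-06), where Rbbp4 was not called.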
